A study of Mus musculus with 6 samples.

Results

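Dicer1 and 8 other genes that make or modify microRNA precursors were followed in mouse cortex: Drosha, Dgcr8, Ddx5, Ddx17, Xpo5, Tarbp2, Prkra and Adar. They were chosen by name, as factors of microRNA biogenesis, and all 9 were found among the 19938 genes measured. The tissue was adult forebrain cortex from C57BL/6 mice, read on 1 Affymetrix whole-transcript array per biological replicate as log2 expression. The 3 animals labelled Dicer KO were CamKII-Cre/+;Dicer flox/flox, so 1 Cre transgene was joined with 2 floxed Dicer alleles. The 3 littermate controls had 1 of 2 genotypes, either CamKII-Cre/+;Dicer flox/+ (Cre with a single floxed allele) or +/+;Dicer flox/flox (no Cre), and the labels do not say which animal had which. Floxed Dicer alleles were thus carried by both groups. The CamKII promoter drives Cre in excitatory neurons of the forebrain, and glia, vessels and interneurons were not targeted. The animals' age is given only as adult. Slc17a7, the vesicular glutamate transporter of excitatory neurons, was bright and read between 12.06 and 12.37 on all 6 arrays.

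A microRNA gene is first copied into a long transcript with a hairpin. In the nucleus the Microprocessor, made of the nuclease Drosha and its RNA-binding partner Dgcr8, cuts the hairpin free, with the helicases Ddx5 and Ddx17 as helpers. Exportin 5, encoded by Xpo5, carries the hairpin to the cytoplasm, where Dicer trims it to a short duplex with the double-stranded RNA binding proteins TRBP (Tarbp2) and PACT (Prkra) at its side. Adar changes adenosine to inosine in double-stranded RNA, hairpins of microRNAs among them. Mature microRNAs are not read by these arrays.

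The Microprocessor also cuts a hairpin in the message of Dgcr8 itself, and one such hairpin, mir-1306, is shown because it ties a member of the pathway to its own product. It lies inside Dgcr8 on the same strand, at chr16:18284239-18284317 (minus strand, GRCm38.p6, RefSeq), and is 79 bases long. Capitals mark its 2 mature arms.
mir-1306: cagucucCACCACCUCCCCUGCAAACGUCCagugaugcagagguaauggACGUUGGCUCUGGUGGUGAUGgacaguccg

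The 250 bases before the start of transcription are shown for Dicer1 and Dgcr8, the pair of genes with the largest positive differences, and for Drosha, the partner of Dgcr8 whose values lay the other way. They come from RefSeq (GRCm38.p6), and capitals mark the motif CCAAT on either strand. Dicer1 is at chr12:104751953-104752202 on the minus strand, Dgcr8 at chr16:18289169-18289418 on the minus strand and Drosha at chr15:12824565-12824814 on the plus strand.
Dicer1: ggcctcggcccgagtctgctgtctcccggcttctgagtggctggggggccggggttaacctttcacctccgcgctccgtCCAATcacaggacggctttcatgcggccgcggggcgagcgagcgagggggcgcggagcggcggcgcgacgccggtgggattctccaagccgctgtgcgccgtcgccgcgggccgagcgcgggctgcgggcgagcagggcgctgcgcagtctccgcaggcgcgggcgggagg
Dgcr8: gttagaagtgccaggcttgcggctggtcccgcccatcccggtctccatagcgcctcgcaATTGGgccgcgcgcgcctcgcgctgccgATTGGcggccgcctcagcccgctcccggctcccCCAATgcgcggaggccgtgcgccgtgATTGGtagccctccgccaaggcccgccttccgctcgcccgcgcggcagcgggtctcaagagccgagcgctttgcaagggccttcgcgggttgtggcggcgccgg
Drosha: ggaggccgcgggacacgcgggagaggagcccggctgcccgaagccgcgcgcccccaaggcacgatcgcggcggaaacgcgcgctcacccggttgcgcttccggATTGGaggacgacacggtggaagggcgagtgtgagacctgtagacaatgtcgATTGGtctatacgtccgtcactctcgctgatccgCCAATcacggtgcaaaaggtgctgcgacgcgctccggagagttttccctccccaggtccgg

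The Dicer1 stretch holds 1 CCAAT, the Dgcr8 stretch 4 and the Drosha stretch 3. RefSeq lists 14 starts for the 9 genes, and 6 of the 14 stretches held the motif, from 6 different genes. Among all 32851 stretches of this length 33.8% held it. The GC content of the 14 stretches ran from 50.0% to 76.0%, against a median of 52.4% over all stretches, and 1 stretch each of Adar (50.0%) and Ddx17 (50.8%) lay below that median. The Dicer1 stretch, with 76.0% GC and 39 CG pairs, was at the top of that range, and the median stretch had 6 CG pairs. The motif TATAAA was found at 2 starts, 1 of Ddx5 and 1 of Ddx17, and in 12.4% of all stretches. These matches describe letters and were not tested for binding or for a link to the differences.

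The 6 arrays had median log2 values of 7.13 to 7.22 and correlated with each other at 0.9749 to 0.9915 across 35557 rows, which are not independent replicates. Eif2s3y, on the Y chromosome, and Xist, from the inactive X, placed 2 males and 1 female among the animals labelled Dicer KO and 1 male and 2 females among the controls. Control array 1 stood apart in olfactory bulb markers, whose mean was 1.66 above each gene's own average there and between -0.39 and -0.30 on the other 5 arrays. Labelled KO array 3 stood apart in astrocyte markers, at 0.49, where the other 5 arrays lay between -0.23 and 0.08. That array was also the highest in microglia markers (0.37, the other 5 at -0.28 to 0.17) and in interneuron markers (0.21, the other 5 at -0.14 to 0.0047).

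None of the 9 genes passed an adjusted p of 0.05 in the limma fit over all genes, where 0.281% of genes did, and none passed 0.1, where 1.60% did. The count behind the first share was 56 genes, and it was 129 without labelled KO array 3 and 0 without any other single array. By a looser reading, 3 of the 9, Dicer1, Dgcr8 and Ddx5, had an unadjusted p under 0.05 and all 3 read higher on the labelled KO arrays. Over all genes 14.4% had such a p, and 7.01% had it with a higher value. Ddx5 was near that limit, at an unadjusted limma p of 0.046. When the model was refitted in 15 alternative ways, that p ran from 0.023 (trended and robust prior) to 0.14 (without labelled KO array 2). In 5 of the 9 genes the groups did not overlap, where 20.3% of all genes showed this. For 4 of these 5 every labelled KO array was above every control, which held for 9.30% of genes, and for Drosha every labelled KO array was below, which held for 11.0%.

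**Figure D1:**
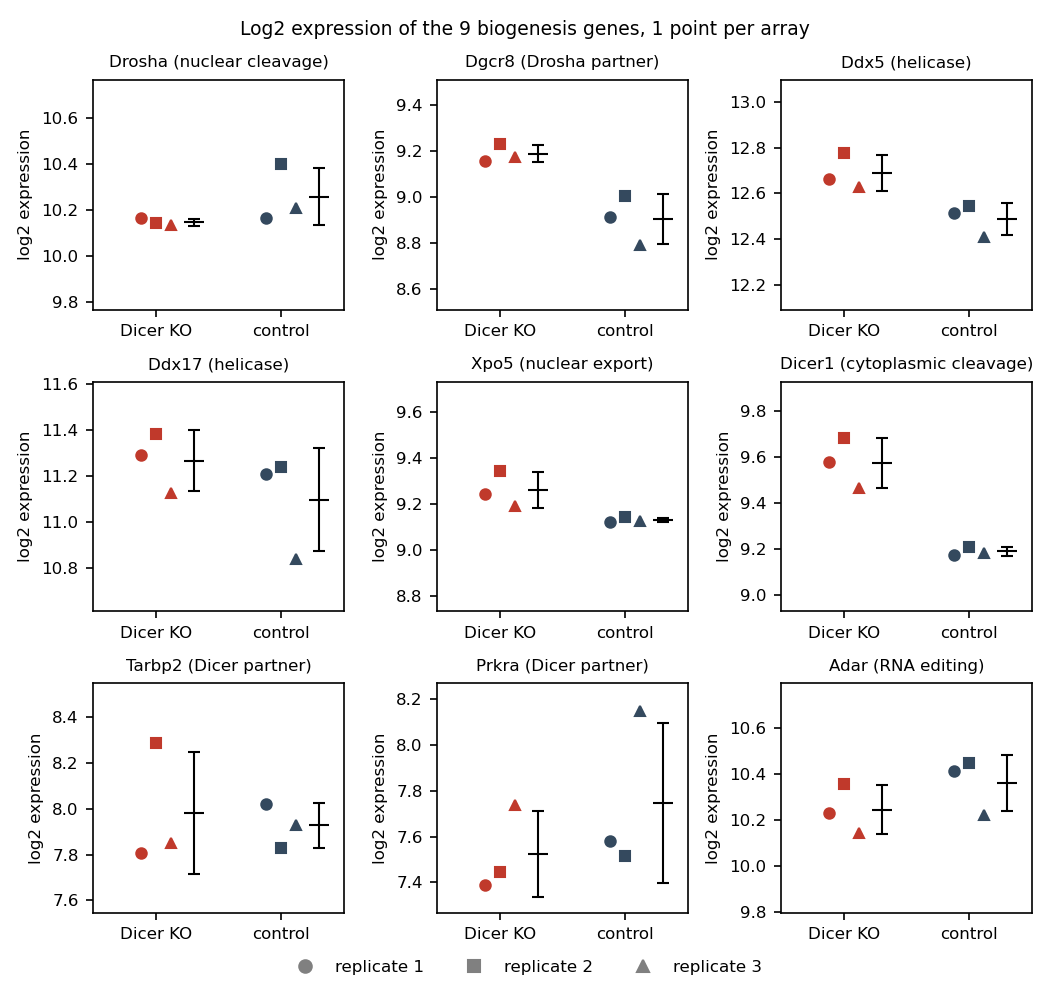
Log2 expression of the 9 genes on each array, with the arrays labelled Dicer KO on the left of each panel and the controls on the right. Symbols mark the replicate number, black bars the mean and SD of 3 arrays, and each vertical axis spans 1 log2 unit. The groups are apart for Dicer1, Dgcr8, Ddx5 and Xpo5, and for Drosha by 0.0012 only.

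Dicer1, the targeted gene and the nuclease that gives mature microRNAs, read 9.58, 9.68 and 9.46 on labelled KO arrays 1, 2 and 3, against 9.17, 9.21 and 9.18 on the controls. All 3 labelled KO arrays lay above all 3 controls, and the gap between the nearest arrays of the groups was 0.26. The difference was 0.39 ± 0.087 (SE), 1.31-fold, with a 95% interval of 0.19 to 0.58 (limma adjusted p = 0.102). By p-value Dicer1 ranked 334th of 19938 genes. The control values spread little, with an SD of 0.018, while the SD of the labelled KO arrays was 0.11 (n = 3 each). A single probe set reads the gene, and which exons it covers against the floxed ones was not examined, so a higher signal here checks neither the deletion nor the labels. In bulk cortex the share of targeted cells and the RNA per cell cannot be told apart.

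The size of the Dicer1 difference moved little with the choice of arrays. With 1 array left out at a time it was lowest at 0.33, when labelled KO array 2 was dropped, and highest at 0.44, when array 3 of that group was dropped. Without control array 1, which carried the olfactory bulb markers, it was 0.38. Among males it was 0.31, from 2 labelled KO animals averaging 9.52 and 1 control at 9.21. Among females it was 0.50, from 1 labelled KO animal at 9.68 and 2 controls averaging 9.18. Dicer1 passed the threshold under 1 alternative only, a fit with array weights (adjusted p = 0.0164), in which labelled KO array 1 alone had a weight of 5.18 and the other 5 arrays had weights of 0.43 to 1.20. Over the 15 alternatives that refitted the model its adjusted p ran from 0.0164 to 0.296.

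The estimates of the 2 core subunits of the Microprocessor had opposite signs. Dgcr8, which holds the hairpin for cutting, read 9.16, 9.23 and 9.18 on the arrays labelled Dicer KO, against 8.92, 9.01 and 8.79 on the controls. Here too the groups did not overlap, and the nearest arrays were 0.15 apart. The difference was 0.28 ± 0.088 (SE), 1.22-fold, with a 95% interval of 0.084 to 0.48 (limma adjusted p = 0.198). It lay between 0.23 and 0.34 with 1 array left out at a time. Within males it was 0.16 and within females 0.38.

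Drosha, the nuclease of the same complex, read 10.16, 10.15 and 10.13 on the arrays labelled Dicer KO, against 10.17, 10.40 and 10.21 on the controls. The labelled KO values were nearly equal, with an SD of 0.016, and control array 2 was the high one. The difference was -0.11 ± 0.090 (SE), with a 95% interval of -0.32 to 0.094 (limma adjusted p = 0.640), and without control array 2 it was -0.040. Its interval overlaps that of Dgcr8, whose lower end is 0.084.

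Set against each other within each array, Dgcr8 minus Drosha, each centred on its own mean, was 0.15, 0.24 and 0.20 on labelled KO arrays 1, 2 and 3, against -0.093, -0.24 and -0.26 on the controls. The group means of this quantity differed by 0.39. Of the 4 partner pairs set out in this way, Dicer1 minus Tarbp2 differed by 0.33, Dicer1 minus Prkra by 0.61 and Ddx5 minus Ddx17 by 0.028. These are descriptions: the pairs were chosen with the values known, and with 3 arrays a group the smallest two-sided p of an exact permutation is 0.1.

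Ddx5 and Ddx17, closely related DEAD-box helicases of the Microprocessor, lay in the same direction. Ddx5 read 12.66, 12.78 and 12.63 on the arrays labelled Dicer KO, against 12.52, 12.54 and 12.41 on the controls. The groups were apart by 0.084, and the difference was 0.20 ± 0.086 (SE), 1.15-fold, with a 95% interval of 0.0040 to 0.40 (limma adjusted p = 0.339). A second probe set of Ddx5 read 12.28, 12.35 and 12.23 on the arrays labelled Dicer KO, against 12.14, 12.21 and 12.06 on the controls, a difference of 0.15. Both probe sets of Ddx5 had groups that did not overlap. With 1 array left out at a time the difference of Ddx5 lay between 0.16 and 0.23. Within males the difference of Ddx5 was 0.10 and within females 0.32.

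Ddx17 read 11.29, 11.38 and 11.12 on the arrays labelled Dicer KO, against 11.21, 11.24 and 10.84 on the controls. The groups overlapped, since labelled KO array 3 was below control arrays 1 and 2. The difference was 0.17 ± 0.13 (SE), with a 95% interval of -0.11 to 0.46 (limma adjusted p = 0.597). Control array 3 set much of it, and without that array it was 0.042. Within males it was -0.032 and within females 0.36. Whether probes of one helicase also pick up the other was not tested.

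Xpo5, the exporter of precursor hairpins, had a small difference with very even controls. Its values were 9.25, 9.35 and 9.19 on the arrays labelled Dicer KO, against 9.12, 9.14 and 9.13 on the controls, whose SD was 0.010. The groups did not overlap but were only 0.049 apart. The difference was 0.13 ± 0.082 (SE), with a 95% interval of -0.057 to 0.32 (limma adjusted p = 0.530). Dropping labelled KO array 2 gave 0.087, and dropping array 3 of that group gave 0.16. Within males it was 0.075 and within females 0.22.

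For both partners of Dicer the groups overlapped. Tarbp2 read 7.81, 8.28 and 7.85 on the arrays labelled Dicer KO, against 8.02, 7.83 and 7.93 on the controls. Only labelled KO array 2 was above the controls, and the other 2 labelled KO arrays lay below control arrays 1 and 3. The difference of 0.054 ± 0.13 (SE), with a 95% interval of -0.25 to 0.36 (limma adjusted p = 0.897), became -0.098 without labelled KO array 2. A second, dimmer probe set of Tarbp2 read 6.66, 6.67 and 6.63 on the arrays labelled Dicer KO, against 6.47, 6.50 and 6.83 on the controls, a difference of 0.052 with overlapping groups.

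Prkra, whose product PACT also activates the kinase PKR, was the most variable of the 9 genes, with a range of 0.76 over the 6 arrays. It read 7.39, 7.45 and 7.74 on the arrays labelled Dicer KO, against 7.58, 7.51 and 8.15 on the controls. Array 3 was the highest of its group on both sides. The difference was -0.22 ± 0.17 (SE), with a 95% interval of -0.61 to 0.16 (limma adjusted p = 0.614). Without control array 3 it was -0.023. Within males it was 0.048 and within females -0.42.

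Adar, the editing enzyme, read 10.23, 10.36 and 10.15 on the arrays labelled Dicer KO, against 10.41, 10.45 and 10.22 on the controls. The groups overlapped, and the difference was -0.12 ± 0.099 (SE), with a 95% interval of -0.34 to 0.11 (limma adjusted p = 0.661). It was -0.26 within males and 0.042 within females.

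**Figure D2:**
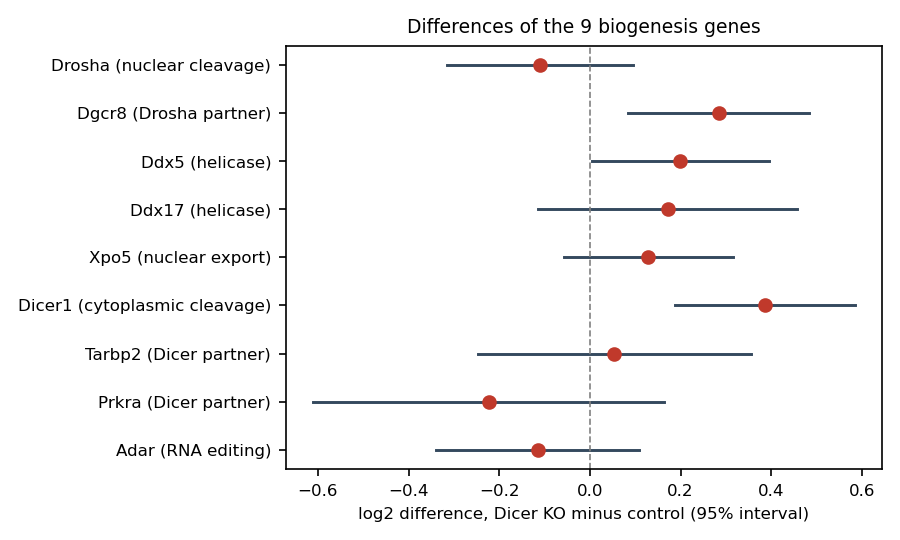
Log2 difference of each of the 9 genes, Dicer KO minus control (points), with its 95% interval from limma (lines), ordered by step of the pathway. The intervals of Dicer1, Dgcr8 and Ddx5 lie above 0, that of Ddx5 by 0.0040 only, and those of the other 6 genes span 0.

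As a set, 6 of the 9 differences were above 0, where 47.3% of all genes were. Their median was 0.13, against -0.0092 over all 19938 genes. Labelled KO array 2 was the highest of its group for 7 of the 9 genes, and control array 2 was the highest of its group for 7 of the 9. The mean of the 9 genes, each centred on its own average, was 0.0044, 0.13 and -0.0048 on labelled KO arrays 1, 2 and 3, against -0.042, -0.017 and -0.070 on the controls. The set mean was highest on labelled KO array 2, the only female of its group, and among the controls on array 2, the only male of its group.

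Differences within the sexes had the same sign for Dicer1, Dgcr8, Ddx5, Xpo5, Drosha and Tarbp2, though that of Tarbp2 was 0.00010 in males. They had opposite signs for Ddx17, Prkra and Adar. A limma fit with a term for the difference between the sexes called none of the 9 genes (smallest adjusted p = 0.787) and 0 of all genes, with 0 of the 9 and 1100 of all genes at an unadjusted p under 0.05. Each sex had a single animal in 1 of the groups, and the error of a difference between the sexes is correspondingly wide.

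**Figure D3:**
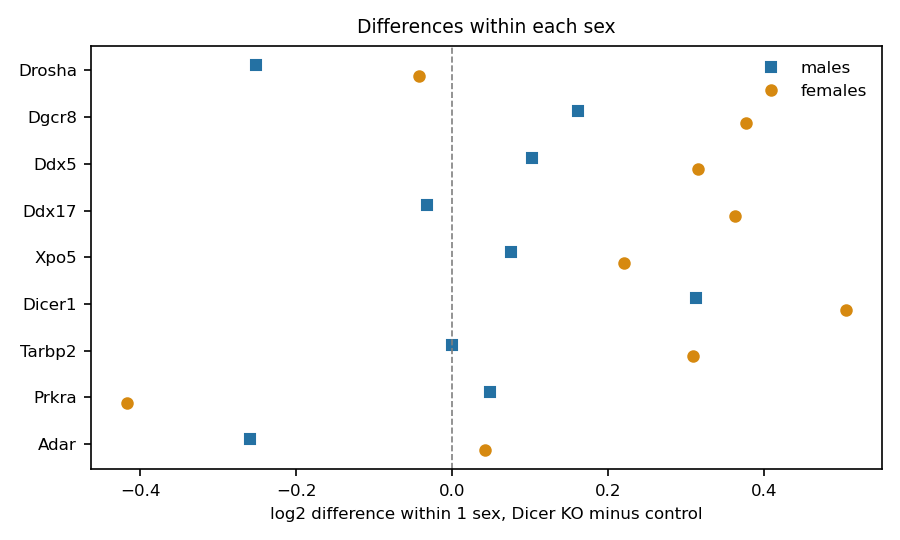
Log2 difference, Dicer KO minus control, within males (squares, 2 Dicer KO animals and 1 control) and within females (circles, 1 Dicer KO animal and 2 controls). The female point lies to the right of the male point for 8 genes, and to the left for Prkra. The female points share the single female Dicer KO array and the male points the single male control array, each the highest of its group for 7 of the 9 genes, so the genes are not independent here. No error is drawn, since each sex has a group with 1 animal.

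Other factors that act on microRNA precursors or on the ends and decay of microRNAs showed no call. Of 33 listed genes 29 were measured, and 0 passed an adjusted p of 0.05 in limma. At an unadjusted p under 0.05 there were 4 higher and 1 lower, or 5 of 29, against 14.4% of all genes. Their median difference was 0.027, with 17 above 0 and 12 below. Ncbp2, the small subunit of the nuclear cap-binding complex, read 9.35, 9.29 and 9.38 on the arrays labelled Dicer KO, against 9.57, 9.68 and 9.68 on the controls, and differed by -0.30 ± 0.082 (SE; adjusted p = 0.153). Tent2, a poly(A) polymerase that adds adenosines to some microRNAs, read 9.61, 9.91 and 9.49 on the arrays labelled Dicer KO, against 9.20, 9.36 and 9.17 on the controls. Its groups did not overlap, and it differed by 0.42 ± 0.12 (SE; adjusted p = 0.164).

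Srsf3, a splicing factor that binds beside microRNA hairpins, differed by 0.23 ± 0.084 (SE; adjusted p = 0.254) with groups that did not overlap. Xrn1, a cytoplasmic exonuclease, differed by 0.42 ± 0.15 (SE; adjusted p = 0.259), and its groups overlapped. Lin28a and Lin28b, which block the processing of let-7 precursors, were at -0.10 and -0.061. Their log2 values were 7.17 to 7.79, where the array medians were 7.13 to 7.22. Ran, the GTPase with which exportin 5 binds its cargo, was at -0.013 with a 95% interval of -0.19 to 0.17.

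Genes related to the 9 by sequence family were also compared, by their counts and medians. Of 27 listed relatives 25 were measured and 0 passed the threshold in limma. At an unadjusted p under 0.05 there were 3 higher and 3 lower, or 6 of 25, against 14.4% of all genes, and the median difference was 0.074. Xpo4, another exportin, read 8.94, 9.06 and 8.82 on the arrays labelled Dicer KO, against 8.58, 8.65 and 8.48 on the controls. Its difference of 0.37 ± 0.095 (SE; adjusted p = 0.134) was larger than that of Xpo5. Xpo1, Xpo6, Xpo7 and Xpot lay between -0.12 and 0.074.

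Stau2, a double-stranded RNA binding protein of neuronal transport granules, differed by -0.27 ± 0.087 (SE; adjusted p = 0.216). Ddx3x, a DEAD-box helicase encoded on the X chromosome, differed by 0.37 ± 0.13 (SE; adjusted p = 0.249) and Ddx4, a helicase of germ cells that was dim here at 5.34 to 6.54, by -0.59 ± 0.21 (SE; adjusted p = 0.245). Of the relatives of Adar by sequence, Adarb1 was at -0.28, the same sign as Adar, and Adarb2 at 0.16.

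**Figure D4:**
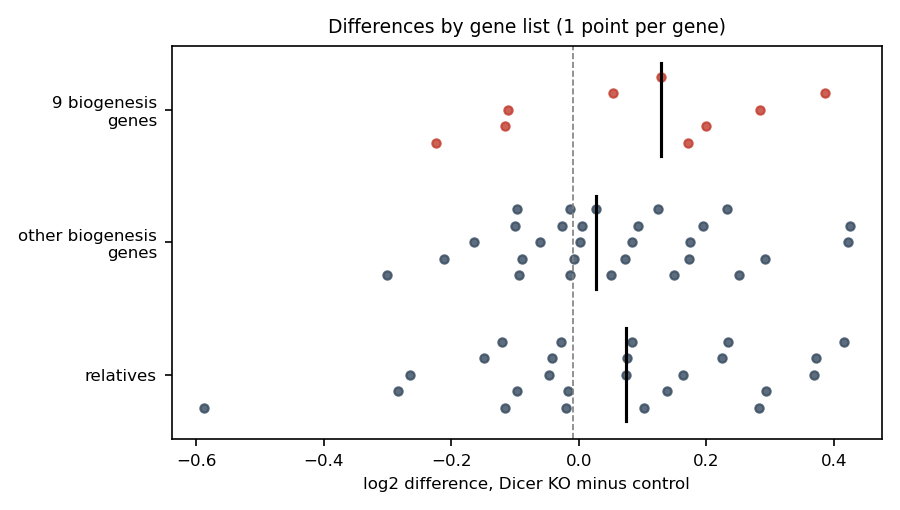
Log2 differences, Dicer KO minus control, for the 9 biogenesis genes, 29 other biogenesis genes and 25 relatives, 1 point per gene, with black bars at the list medians of 0.13, 0.027 and 0.074. The dashed line is the median of all genes, -0.0092. The vertical scatter within a list only separates points.

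The pattern of Dicer1 over the arrays was matched to all other named genes by the mean absolute distance between centred log2 values on 6 arrays. The nearest were Gpld1 at 0.030, Pde1b at 0.032, Pkia at 0.033, and C8b and Snrnp200, each at 0.034. C8b was dim, with log2 values of 6.33 to 6.77, below the lowest array median of 7.13. Gpld1 encodes a phospholipase that cleaves GPI anchors, Pde1b a calmodulin-dependent phosphodiesterase, Pkia an inhibitor of protein kinase A, C8b a complement component and Snrnp200 a helicase of the spliceosome. Their differences ran from 0.32 to 0.43, with limma adjusted p from 0.0862 to 0.147. They were picked for this likeness, so these values describe them and test nothing. Of the 9 genes, Dgcr8 was nearest to Dicer1, at 0.085, with 1.89% of all genes closer, and Ddx5 followed at 0.093, with 2.81% closer. Prkra was the farthest, at 0.31.

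**Figure D5:**
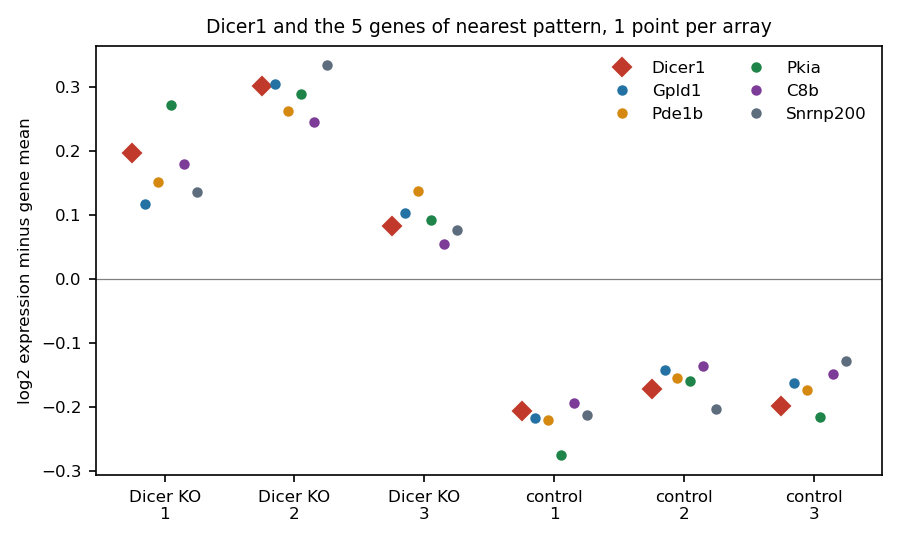
Log2 expression of Dicer1 (diamonds) and the 5 genes of nearest pattern (circles), each centred on its own mean over the 6 arrays. All 6 genes are above 0 on the arrays labelled Dicer KO, highest on array 2, and below 0 on the controls.

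Marker lists of the cell types in cortex are given as list means, which were not tested. Excitatory neuron markers, the cells in which Cre acts, averaged -0.095, -0.12 and -0.19 on labelled KO arrays 1, 2 and 3, against 0.084, 0.22 and 0.096 on the controls. All 5 measured markers of that list had differences below 0, with Slc17a7 at -0.098. Nrgn, the calmodulin-binding protein neurogranin, was the only one past the threshold, at -0.60 ± 0.088 (SE; limma adjusted p = 0.0413). For the other 4 the groups overlapped, with Tbr1 at -0.011. With sex as a covariate no gene passed the threshold, Nrgn included. Astrocyte markers averaged 0.080, -0.14 and 0.49 on the arrays labelled Dicer KO, against -0.23, -0.15 and -0.054 on the controls, with 5 of 6 differences above 0 and none past the threshold. Gfap, the intermediate filament of astrocytes, read 9.10, 8.92 and 10.44 on the arrays labelled Dicer KO, against 8.34, 8.35 and 8.55 on the controls, a difference of 1.07 ± 0.33 (SE; limma adjusted p = 0.196) with groups that did not overlap. The gap junction gene Gja1 was at 0.44 and the glutamate transporter gene Slc1a3 at 0.29, also without overlap, while Aqp4, the water channel, was at 0.099, Slc1a2 at 0.057 and Aldh1l1 at -0.21. On labelled KO array 2, where Dicer1 was highest, astrocyte, microglia and oligodendrocyte markers were the lowest of that group, at -0.14, -0.28 and -0.31. Markers of oligodendrocyte precursors (-0.18) and of meninges and fibroblasts (-0.14) were also the lowest there. Endothelial (0.11), choroid plexus (0.40) and olfactory bulb (-0.30) markers were the highest of that group. Excitatory neuron and interneuron markers lay between those of the other arrays of the group. A link to Dicer1 was not tested.

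Interneuron markers differed by 0.13 on average, with Gad1 at 0.082, and oligodendrocyte markers by 0.079, with Mbp at 0.16. Precursors of oligodendrocytes differed by -0.14, with Pdgfra at -0.30, and microglia by -0.028, with Cx3cr1 at 0.025. Endothelial markers differed by 0.078, with Cldn5 at 0.20, and meningeal and fibroblast markers by 0.17, with Col1a1 at 0.11. Choroid plexus markers differed by 0.28, with Ttr at 1.28, while Folr1, Kl and Aqp1 lay between -0.15 and 0.015. Folr1, Kl and Aqp1 were dim, at 6.32 to 6.86, below the lowest array median of 7.13. Ttr read 9.85, 10.95 and 8.30 on the arrays labelled Dicer KO, against 8.73, 8.34 and 8.18 on the controls. The groups of Ttr overlapped. Olfactory bulb markers differed by -0.63, with Eomes at -0.99, and control array 1 carried that difference. The part of cell composition in the differences of Dicer1 and the other genes was not tested.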

How the data were processed

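The deposited table holds the authors' log2 expression per probe set and array. The submitters' processing notes list RMA and limma, with no version. How probe sets were defined is not given in the sources used here. Of 35557 rows, 21789 had 1 gene symbol in the platform's probe table, and symbols were updated through a GRCm38.p6 gene table. A gene with several probe sets was read from its brightest one over the 6 arrays, which left 19938 genes. Groups were compared with limma 3.58.1 (R 4.3.3), by lmFit and eBayes with a single group term. Two-sided p-values were adjusted by Benjamini and Hochberg across the 19938 genes, and 0.05 was the threshold. Errors are moderated standard errors or SD. The labels call the samples biological replicates, and 3 arrays a group limit the precision. RMA brings the arrays to nearly equal quantiles, so a shift of most transcripts would not show.

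The genes and lists were chosen with earlier results of these data known. Named were the 9 genes, the 4 of smallest p and any past the threshold in each list, the 5 nearest in pattern to Dicer1 (gene models, microRNA and snoRNA genes left out), Eif2s3y, Xist and the first marker of each cell type. Genes named beyond these (Lin28a, Lin28b, Ran, further exportins, Adarb1, Adarb2, choroid, astrocyte and excitatory neuron markers) were added after their values were seen. The fit was tested on simulated data. It called 83% of genes changed by 1 log2 unit and 33.8% of genes changed by 0.5, so differences of this smaller size were mostly missed there. Alternatives were a replicate block, each array left out, median centring, a second quantile normalization, no dim genes, averaged probe sets, all rows, a trended and robust prior, array weights, sex and a threshold of 0.1. Some listed genes were not analysed here.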

Additional observations from a re-analysis of the deposited data

How the results depend on the processing

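Over the 15 refits, 8 of the 9 genes kept the sign of their difference in all of them, and Tarbp2 in 13. Tarbp2 was at -0.098 without labelled KO array 2 and at -0.059 with array weights, and with 1 array left out it ranged from -0.098 to 0.14. Array weights gave the 1 call among the 9 genes, Dicer1 at 0.39, and also 3 calls among the other biogenesis genes, 1 among the relatives and 1116 over all genes. That fit gave labelled KO array 1 a weight of 5.18. The count over all genes, 56 as reported, was 215 with the replicate block, 98 with the dimmest genes left out, 0 with every row tested, 0 with sex as a covariate and 320 at a threshold of 0.1. It ranged from 0 to 129 with 1 array left out, 129 without labelled KO array 3 and 0 without any other. The fits with 0 calls had 2197 to 2532 genes at an unadjusted p under 0.05. Deviations of same-numbered arrays from their group means correlated at 0.089, 0.17 and 0.29 for numbers 1, 2 and 3. Those of arrays with unlike numbers correlated between -0.23 and 0.094. Labelled KO array 3 was at 0.29 with control array 3, against -0.14 and -0.19 with control arrays 1 and 2. Whether the array numbers mark a pairing was not tested. With the replicate block the adjusted p of Dicer1 was 0.0707 at an unchanged difference of 0.39, and no call among the 9 genes changed. Small differences such as that of Xpo5 could not be resolved with 3 arrays a group.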
